A study of Mus musculus with 42 samples.

Results

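The genes described here are the zinc finger genes with symbols from Zfp900 to Zfp999. They were taken as every row of the count tables whose gene symbol was Zfp9 followed by 2 more digits. This gave 61 rows and 60 symbols, from Zfp930 to Zfp998, among 18825 rows in experiment 1 and 19866 rows in experiment 2. All 61 rows were present in both tables and passed the filter on low counts in both. The symbol Zfp965 was carried by 2 rows with different Ensembl identifiers.

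The data came from RNA immunoprecipitation followed by sequencing in mouse embryonic stem cells. Beads against the HA tag were used to pull down Tnrc6a, and the RNA held on the beads (IP) was sequenced beside that of the whole lysate (input). All cells were of the strain 129S6/SvEvTac and carried the reporter GFP_5xT71BS and a stably transfected FLAG-Cas9. Untagged cells carried nothing further. Tagged cells carried HA-AVI-Tnrc6a. Cells labelled Trim71KO and, in experiment 2, cells labelled Ago2KO carried this tag and were labelled Trim71-/- or Ago2-/-. Each of the 14 groups had 3 libraries, 42 in all, with 18 in experiment 1 and 24 in experiment 2. The labels state that cells were grown in triplicate but not how many clones stood behind a genotype, so a p-value measures the spread between these libraries and a difference between genotypes cannot be told apart from a difference between lines.

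Most mouse zinc finger genes of this number range are of the KRAB type. Their proteins bind DNA through arrays of zinc fingers, and the KRAB domain recruits Trim28, which brings the histone methyltransferase Setdb1 and heterochromatin proteins to the bound site. In embryonic stem cells this pathway is known for silencing transposable elements, and many of its zinc finger genes lie in clusters that grew by tandem duplication. Tnrc6a belongs to the GW182 proteins, which are bound by Argonaute proteins such as Ago2 and lead microRNA targets to deadenylation and decay. Trim71 is an RNA-binding protein that represses mRNAs in stem cells.

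Libraries of experiment 1 held 12587257 to 23657840 counts, and those of experiment 2 held 16296447 to 21026552. Tnrc6a RNA in the IP libraries of all cells with the tag was at least 12900 CPM (counts scaled to library size with TMM factors), against at most 94 CPM in untagged IP libraries. Ago2 RNA was 158 to 167 CPM in Ago2KO input and 321 to 390 CPM in tagged input of experiment 2. Trim71 RNA in Trim71KO input was not below that of tagged input (278 to 284 against 227 to 265 CPM in experiment 1, and 368 to 387 against 265 to 309 CPM in experiment 2), so its level does not check that label. All 10 markers of embryonic stem cells had a row, and their summed input level was 6881 to 9430 CPM over all groups. Within an experiment the genotypes did not overlap in this sum. It was lowest in untagged input (6881 to 7022 CPM in experiment 1, 7634 to 8026 CPM in experiment 2). Trim71KO input was highest (8190 to 8369 CPM and 9179 to 9430 CPM). The summed level of the 2-cell-like markers, of which 2 and 3 had a row, was at most 2.67 CPM. Tagged input of experiment 1 varied most among its libraries for Ago2, at 358, 179 and 255 CPM, against 356, 346 and 371 CPM in untagged input. The input comparisons and the fit of both experiments that rest on these libraries are also given without each of them.

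By their RefSeq positions (GRCm38.p6), 41 of the 60 symbols lay in clusters of 3 or more members less than 1 Mb from their neighbour. The cluster on chromosome 4 (chr4:145510759-147849126) held 12 members, namely Zfp990, Zfp980, Zfp987, Zfp992, Zfp981, Zfp991, Zfp988, Zfp982, Zfp985, Zfp979, Zfp984 and Zfp933 in chromosomal order. The cluster on chromosome 17 (chr17:21565816-22867309) held 10 members. The cluster on chromosome 2 (chr2:175372034-178078425) held 9 symbols in 10 rows. Smaller clusters lay on chromosome 7 (4 members), chromosome 13 (3) and chromosome 8 (3). Zfp934 and Zfp935 formed a pair on chromosome 13, and 17 members stood alone.

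The promoters of the chromosome 4 members are shown because those genes moved together in the input RNA described further on. RefSeq (GRCm38.p6, C57BL/6J) held a promoter window of 300 bases, from 250 before to 50 after a gene start, for 9 of these 12 members. Of the 9, 8 shared a run of 15 bases, TGGGAAGCTAATTAA, which began 114 to 164 bases upstream of the start. Zfp933, the last member at one end of the cluster, did not hold it. The 250 bases upstream of the start are given 5′ to 3′ on the gene's strand, with the run in capitals. They span chr4:147642509-147642758 for Zfp979 and chr4:147809789-147810038 for Zfp984, both on the minus strand, chr4:146514670-146514919 for Zfp981 and chr4:147305354-147305603 for Zfp988, both on the plus strand, and chr4:147848419-147848668 for Zfp933 on the minus strand.
Zfp979: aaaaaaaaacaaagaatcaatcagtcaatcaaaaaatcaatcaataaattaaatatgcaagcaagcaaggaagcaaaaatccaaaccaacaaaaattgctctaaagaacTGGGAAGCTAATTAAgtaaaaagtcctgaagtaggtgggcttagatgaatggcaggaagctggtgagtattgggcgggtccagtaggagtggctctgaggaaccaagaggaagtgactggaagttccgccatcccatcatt
Zfp984: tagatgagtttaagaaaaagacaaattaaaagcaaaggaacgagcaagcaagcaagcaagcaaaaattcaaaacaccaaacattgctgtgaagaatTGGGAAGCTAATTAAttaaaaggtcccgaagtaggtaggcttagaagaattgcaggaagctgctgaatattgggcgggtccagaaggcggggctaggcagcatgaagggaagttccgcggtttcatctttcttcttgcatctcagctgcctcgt
Zfp981: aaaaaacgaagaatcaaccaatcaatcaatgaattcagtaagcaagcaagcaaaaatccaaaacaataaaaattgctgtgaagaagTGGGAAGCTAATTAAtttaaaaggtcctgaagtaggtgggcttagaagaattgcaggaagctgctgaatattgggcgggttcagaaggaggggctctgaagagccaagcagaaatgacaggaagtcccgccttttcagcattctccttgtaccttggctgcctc
Zfp988: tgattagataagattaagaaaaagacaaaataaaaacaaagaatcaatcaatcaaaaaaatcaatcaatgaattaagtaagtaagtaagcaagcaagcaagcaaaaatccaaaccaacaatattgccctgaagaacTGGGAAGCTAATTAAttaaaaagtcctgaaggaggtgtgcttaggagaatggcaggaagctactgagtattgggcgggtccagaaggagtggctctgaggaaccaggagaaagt
Zfp933: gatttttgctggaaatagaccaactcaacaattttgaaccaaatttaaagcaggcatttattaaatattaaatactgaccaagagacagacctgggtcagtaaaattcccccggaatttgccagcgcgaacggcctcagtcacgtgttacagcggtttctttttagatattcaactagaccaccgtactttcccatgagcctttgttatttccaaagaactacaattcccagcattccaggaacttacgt

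The run was picked from these promoters as the longest one held by at least 8 of the chromosome 4 genes, and it is not a named motif. On either strand it was found in a window of 12 of 27025 genes (0.0444%). Of these 12, 8 were the members named above and 4 were other chromosome 4 genes, Gm13212, Zfp600, Rex2 and Zfp534. Windows were aligned in pairs with no penalty for gaps at the ends, so 2 unlike windows may overlap only in part. The best windows of any 2 chromosome 4 members had 14 to 273 identical bases, with a median of 242. The 14 belonged to Zfp933 and Zfp979, while Zfp933 had 154 to 179 with the other members on chromosome 4. The value for unrelated sequence was not measured. Between members of different loci the median was 140 identical bases. On chromosome 2 the windows were closer still, with a median of 261 identical bases and all 300 between Zfp966 and Zfp967. The upstream part of that shared promoter is shown as the Zfp966 copy, chr2:175931101-175931350 on the minus strand.
Zfp966: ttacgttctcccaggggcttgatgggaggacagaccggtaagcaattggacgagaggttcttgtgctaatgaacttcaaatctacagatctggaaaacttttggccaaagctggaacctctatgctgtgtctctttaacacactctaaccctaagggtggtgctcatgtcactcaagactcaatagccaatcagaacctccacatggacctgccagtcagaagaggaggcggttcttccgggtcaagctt
Only promoter windows were aligned, and the likeness of the transcripts was not measured. The sources used here also do not say how reads that map to several places were counted. Values of single members of a cluster are therefore uncertain.

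Most chromosome 4 members also stood high in level. Per kilobase of the deposited gene length, untagged input in experiment 1 ranged over the 61 rows from 0.215 to 31.5 CPM per kb, with a median of 2.33. In experiment 2 it ranged from 0.198 to 56.8 CPM per kb, with a median of 3.05. Zfp990 ranked first in both, at 31.5 and 56.8 CPM per kb. Of the first 8 rows in experiment 1, 6 were chromosome 4 members, and in experiment 2 it was 7 of 8. Zfp998 of chromosome 13 was the other row that stood in both lists, at 23.9 and 24.5 CPM per kb. Zfp933 of the chromosome 4 cluster lay below the median in both, at 1.22 and 1.35 CPM per kb. Zfp964 on chromosome 8 was last in both. At the level of 1 gene across libraries, the 3 members most like Zfp990 over the 6 group means of experiment 1 were Zfp985, Zfp984 and Zfp979 (Pearson r of log2 CPM 0.991, 0.984 and 0.984). Over the 8 group means of experiment 2 they were Zfp985, Zfp979 and Zfp987 (0.960, 0.923 and 0.901). All of these are neighbours on chromosome 4, and the points share libraries.

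The first question was which of these RNAs came down with tagged Tnrc6a. Tag-specific enrichment is log2 IP over input of tagged cells less the same value of untagged cells. In experiment 1, 14 of 61 rows were higher and 10 lower by edgeR's quasi-likelihood test (called means a Benjamini-Hochberg adjusted p below 0.05, with all genes in the adjustment). This is 23% and 16.4% of the members, beside a background of 28.1% higher and 28.8% lower over all 18772 genes. In experiment 2, 10 members were higher and 1 lower (16.4% and 1.64%), beside a background of 18.9% and 8.77% of 19778 genes. The median change of the members was 0.01 in experiment 1 and 0.04 in experiment 2, and that of all genes was -0.10 and -0.03. The members' share was thus below the background in either direction. Genes of low level are called less readily, and the backgrounds were not matched for level. In untagged input 20 of 61 rows were under 5 CPM in experiment 1 and 16 in experiment 2. Of the other numbered Zfp genes, 146 of 294 (49.7%) were called higher in experiment 1 and 115 of 297 (38.7%) in experiment 2; the difference between these sets was not tested. The lower calls depended on the scaling and on single libraries. With RLE factors the split was 14 higher and 5 lower in experiment 1 and 9 higher and 4 lower in experiment 2, and with library size alone it was 14 and 6, and 7 and 10. In experiment 1 the number of lower calls was 2 to 9 when 1 library was left out, and 2 without untagged IP replicate 3 or untagged input replicate 2. In experiment 2, 7 higher and 0 lower calls were left without tagged IP replicate 1.

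A set of 9 members was called higher in both experiments, which is 64.3% of those of experiment 1 and 90% of those of experiment 2. They were Zfp933, Zfp937, Zfp941, Zfp943, Zfp945, Zfp948, Zfp952, Zfp954 and Zfp963. The share of all genes called higher in both experiments was not counted, so this overlap has no background beside it. Zfp943, Zfp945 and Zfp948 lay in the chromosome 17 cluster, Zfp933 in the chromosome 4 cluster and Zfp963 in the chromosome 8 cluster, while Zfp937, Zfp941, Zfp952 and Zfp954 stood alone. The median log2 ratio of IP to input over these 9 was 1.62 in tagged and -0.02 in untagged cells of experiment 1, and 0.68 and -0.18 in experiment 2.

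**Figure D1:**
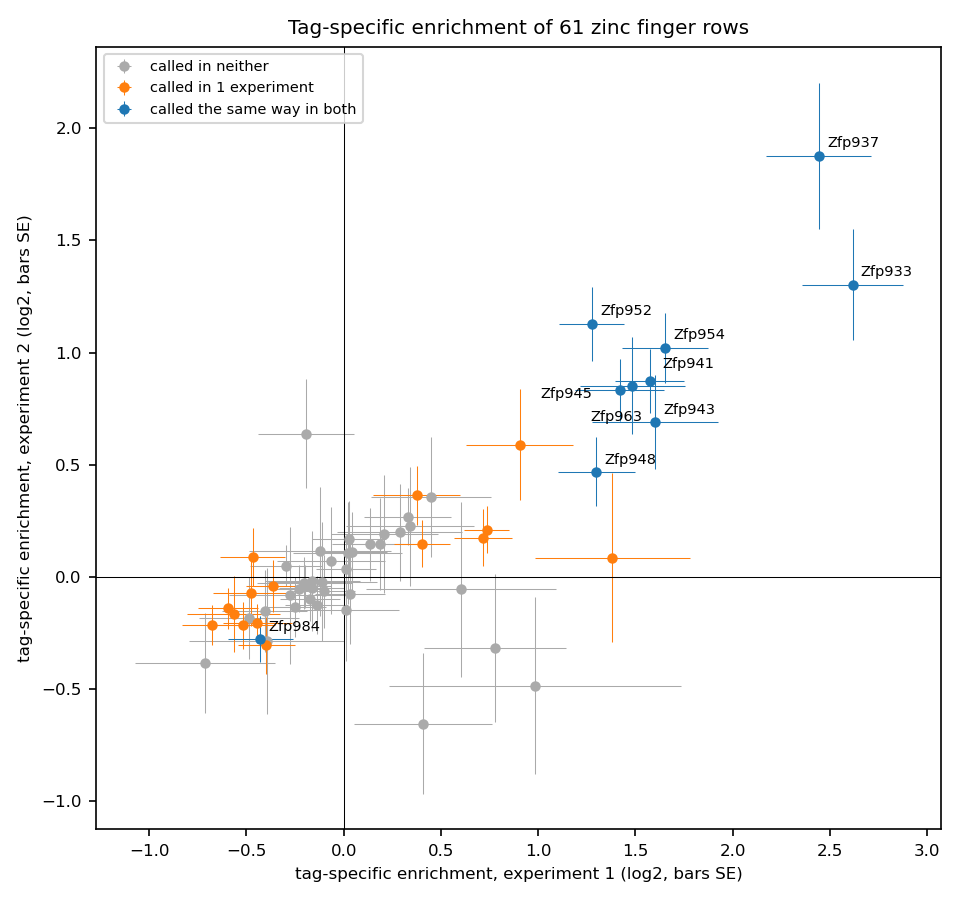
Tag-specific enrichment (log2) of each of the 61 rows in experiment 1 (horizontal axis) against experiment 2 (vertical axis), with bars for the SE. The 9 members called higher in both experiments lie at the upper right, with Zfp933 (2.62 and 1.30) and Zfp937 (2.44 and 1.88) farthest out, and Zfp984 (-0.43 and -0.28) is the member called lower in both.

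Zfp933 RNA was 24.3, 26.2 and 32.4 CPM in the tagged IP libraries of experiment 1 and 7.45, 5.39 and 5.16 CPM in the tagged inputs. In untagged cells it was 4.81, 3.17 and 3.82 CPM in IP and 5.14, 5.36 and 5.15 CPM in input. All tagged IP libraries lay above every other library of these groups. Its tag-specific enrichment by edgeR was 2.62 ± 0.26 on the log2 scale (SE, adjusted p = 7.19e-09). In experiment 2 the tagged IP libraries held 16.9, 13.3 and 10.5 CPM against 6.71, 6.03 and 6.44 CPM in input, and the enrichment was 1.30 ± 0.25 (adjusted p = 0.000173). The groups again did not overlap.

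Zfp937 RNA was 27.4, 20.4 and 22.4 CPM in tagged IP and 4.49, 2.98 and 4.30 CPM in tagged input of experiment 1. In untagged IP it was 3.55, 3.66 and 3.42 CPM, within the range of the inputs of both genotypes. The enrichment by edgeR was 2.44 ± 0.27 (adjusted p = 5.05e-08) in experiment 1 and 1.88 ± 0.33 (adjusted p = 5.14e-05) in experiment 2. Zfp937 had the highest ratio of IP to input of any member in tagged cells of both experiments, 5.96-fold and 3.49-fold.

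The other 7 members had enrichments of 1.28 to 1.65 in experiment 1, from Zfp952 to Zfp954. In experiment 2 the enrichment was 1.13 ± 0.17 for Zfp952, 1.02 ± 0.16 for Zfp954, 0.87 ± 0.14 for Zfp941, 0.85 ± 0.22 for Zfp963, 0.84 ± 0.14 for Zfp945, 0.69 ± 0.21 for Zfp943 and 0.47 ± 0.15 for Zfp948. Leaving out 1 library at a time ended the call of Zfp943 in experiment 2 in 2 of 12 fits (without tagged IP replicate 1 or tagged input replicate 3). That of Zfp948 was lost in 5 of 12 (these 2, tagged input replicate 2, untagged IP replicate 2 and untagged input replicate 1). Both were also lost with library size alone. The calls of the other members in this set held in each of the 12 fits of both experiments. In a fit of all 42 libraries, chosen after seeing the data, 8 of 61 members had a higher enrichment in experiment 1 than in experiment 2 (13.1%, beside backgrounds of 17.3% of 18620 genes in this direction and 11.1% in the other). This share was below the background. Of the 9, 5 were among them, Zfp933 (difference 1.42 ± 0.38, adjusted p = 0.00432), Zfp943, Zfp948, Zfp941 and Zfp954, and Zfp937, Zfp945, Zfp952 and Zfp963 were not called. Without tagged input replicate 3 of experiment 1 the fit called 5 members higher and 3 lower.

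Calls made in experiment 1 alone were higher for Zfp964 (1.38 ± 0.40), Zfp974 (0.91 ± 0.28), Zfp961 (0.74 ± 0.12), Zfp960 (0.72 ± 0.15) and Zfp951 (0.40 ± 0.14). Zfp949 (0.36 ± 0.13) was called higher in experiment 2 alone, and that call was lost in 8 of 12 fits that left out a library. The lower calls of experiment 1 included 6 chromosome 4 members, Zfp979 (-0.68 ± 0.15), Zfp985 (-0.60 ± 0.15), Zfp990 (-0.52 ± 0.16), Zfp987 (-0.44 ± 0.18), Zfp984 (-0.43 ± 0.17) and Zfp982 (-0.40 ± 0.15). The remaining 4 were Zfp938, Zfp942, Zfp934 and Zfp930. Of these 10 lower calls, those of Zfp979 and Zfp985 held in each of the 12 fits without 1 library. Zfp984 was the one member also called lower in experiment 2 (-0.28 ± 0.10, adjusted p = 0.0463), and that call was lost in 8 of 12 such fits. The log2 ratio of IP to input of Zfp933 in tagged cells of experiment 1 was 2.21, and the median of the chromosome 4 cluster was -0.39.

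The next question was whether enrichment of these RNAs depended on Trim71 or Ago2. Trim71-dependent enrichment is log2 IP over input of Trim71KO cells less that of tagged cells. In experiment 1, 1 member was higher and 2 were lower by edgeR (1.64% and 3.28%, beside backgrounds of 0.272% and 3.47%). The lower members were Zfp954 (-0.90 ± 0.21, adjusted p = 0.0151) and Zfp952 (-0.79 ± 0.16, adjusted p = 0.00434), and the higher one was Zfp988 (0.60 ± 0.17, adjusted p = 0.0439). Zfp954 and Zfp952 had also been called tag-enriched, in a comparison that shares the tagged libraries with this one. In experiment 2 no member was called by edgeR or by DESeq2 (backgrounds 0.753% higher and 0.738% lower), and 7 of 61, 3 of them higher, had an unadjusted p under 0.05.

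Zfp952 RNA in experiment 1 was 43.6, 33.7 and 35.2 CPM in tagged IP and 24.8, 19.7 and 21.9 CPM in Trim71KO IP. Input held 10.8, 11.1 and 11.9 CPM in tagged and 12.3, 10.7 and 11.5 CPM in Trim71KO cells, so the IP libraries of the 2 genotypes were separate while the inputs overlapped. In experiment 2 the IP libraries overlapped, at 24.3, 20.8 and 17.4 CPM in tagged and 19.4, 23.7 and 17.6 CPM in Trim71KO cells. Zfp954 RNA in experiment 1 was 28.4, 20.5 and 21.0 CPM in tagged IP and 16.7, 15.9 and 13.1 CPM in Trim71KO IP. These groups did not overlap, nor did those of experiment 2, at 22.4, 22.5 and 20.1 against 17.5, 16.3 and 15.3 CPM. In experiment 1 the fall of Zfp954 in IP alone was smaller than its change in enrichment, which also takes in the input. All 3 calls of experiment 1 depended on single libraries: 0 were left without Trim71KO IP replicate 2 or without Trim71KO input replicate 3. A single call (1) was left without Trim71KO input replicate 2, tagged IP replicate 1 or tagged input replicate 2.

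Ago2-dependent enrichment, tested in experiment 2, sets Ago2KO against tagged cells in the same way. Here 5 members were higher and 0 lower by edgeR (8.2% and 0%), while the background was 0.384% higher and 3.77% lower. At an unadjusted p under 0.05, 11 of 13 members were higher, and DESeq2 called 6. The median of the members was 0.17 and that of all genes 0.00. Of the 61 members, 51 had a positive and 10 a negative value. The largest negative values, not called, were those of Zfp937 (-0.82) and Zfp933 (-0.62), both tag-enriched in both experiments. Their log2 ratios of IP to input were 1.81 and 1.08 in tagged and 0.99 and 0.46 in Ago2KO cells. Zfp941 had the largest change of the called members, 0.72 ± 0.14 (adjusted p = 0.00163). Its IP libraries held 51.8, 38.8 and 40.2 CPM in Ago2KO and 29.8, 25.6 and 27.0 CPM in tagged cells, without overlap, while the inputs, at 19.7, 19.4 and 18.01 against 20.6, 20.0 and 18.4 CPM, overlapped. The other 4 were chromosome 4 members, Zfp990 (0.43 ± 0.10), Zfp987 (0.38 ± 0.09), Zfp984 (0.35 ± 0.10) and Zfp988 (0.31 ± 0.09). With the replicate number as a block within fraction, 6 members were higher and 1 was lower. Of the 5 calls, those of Zfp941 and Zfp987 held in each fit that left out a library. Without Ago2KO IP replicate 2, tagged IP replicate 1 or tagged input replicate 1 the count was 2. Without tagged IP replicate 2, Ago2KO input replicate 1 or Ago2KO input replicate 3 it was 3.

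**Figure D2:**
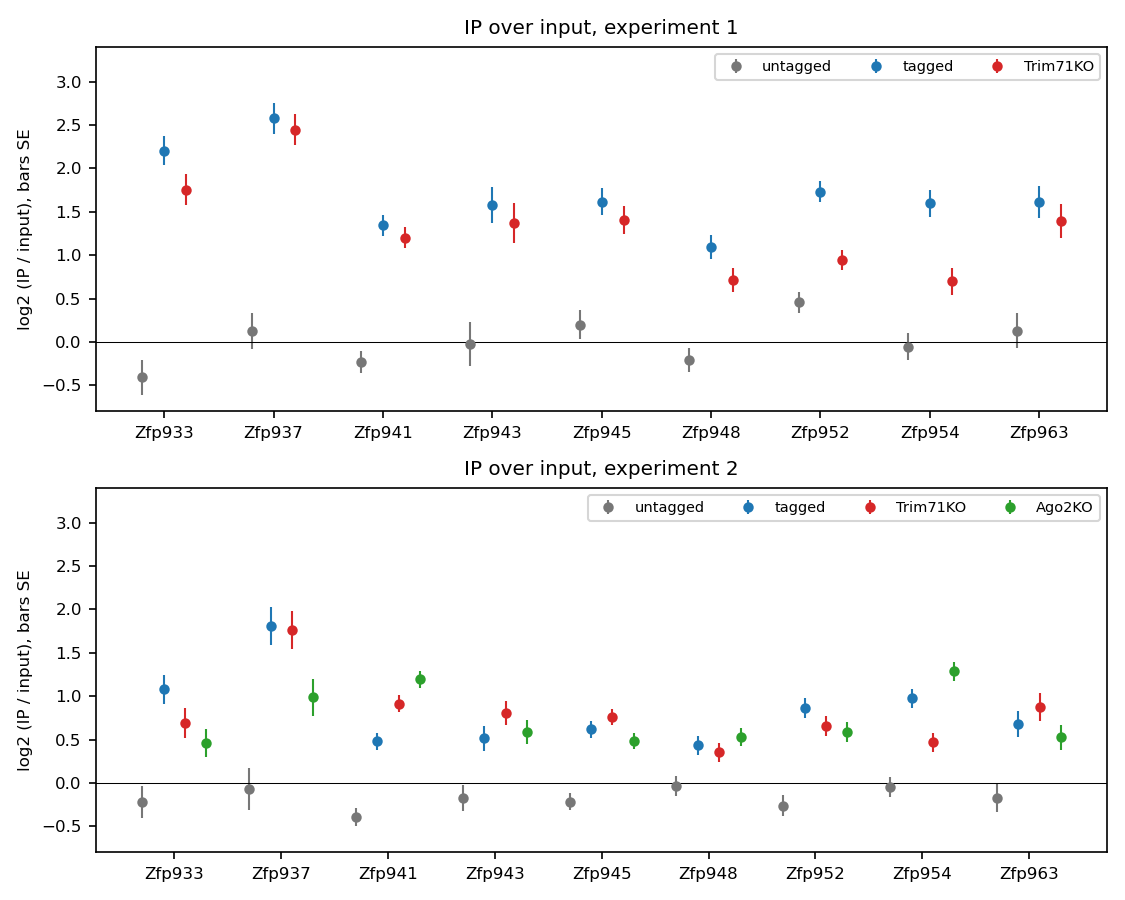
Log2 ratio of IP to input with its SE for the 9 members called tag-enriched in both experiments, by genotype, in experiment 1 (upper panel) and experiment 2 (lower panel). Tagged, Trim71KO and Ago2KO cells lie above untagged cells for each member, and Zfp954 stands lower in Trim71KO (0.47) than in Ago2KO cells (1.29) of experiment 2.

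Set directly against each other in experiment 2, enrichment was lower in Trim71KO than in Ago2KO cells for 11 members and higher for 0 (18% and 0%, beside backgrounds of 2.86% lower and 8.94% higher). At an unadjusted p under 0.05, 3 of 19 members were higher, and with the replicate number as a block within fraction 1 member was called higher and 13 lower. Of the 11, 9 lay in the chromosome 4 cluster, where the median difference was -0.37. They ranged from -0.54 ± 0.09 for Zfp981 (adjusted p = 0.00012) to -0.31 ± 0.09 for Zfp988 (adjusted p = 0.017). The other 2 were Zfp954 (-0.82 ± 0.15, adjusted p = 0.000529) and Zfp946 (-0.65 ± 0.19, adjusted p = 0.02). Zfp981 RNA was 58.2, 62.4 and 62.9 CPM in Trim71KO IP and 82.1, 86.5 and 82.0 CPM in Ago2KO IP. Its inputs were 75.5, 69.5 and 77.3 CPM and 69.2, 70.8 and 69.2 CPM, so the IP libraries were separate and the inputs overlapped. Zfp954 RNA was 17.5, 16.3 and 15.3 CPM in Trim71KO IP and 29.7, 20.6 and 23.2 CPM in Ago2KO IP, without overlap. This difference in IP alone was smaller than that in enrichment, which also takes in the input. For the chromosome 4 members the median log2 ratio of IP to input was 0.10 in Ago2KO, -0.27 in Trim71KO, -0.16 in tagged and -0.07 in untagged cells. Leaving out 1 library at a time gave 9 to 13 calls.

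Input RNA was compared next, to see which members differed in level before the pull-down. In experiment 1, 36 of 61 members were lower in Trim71KO than in tagged input and 0 were higher by edgeR (59% and 0%), while the background was 17.4% lower and 16.5% higher. No member was higher at an unadjusted p under 0.05, and DESeq2 called 37 members. The median of the members was -0.54 and that of all genes -0.01. All 12 chromosome 4 members were lower, with a median of -1.22 (2.33-fold), as were 8 of 10 on chromosome 17 (median -0.93), both of the chromosome 13 pair, and 8 of the 17 that stood alone. None of the 10 rows on chromosome 2 was called (median -0.11). These rows were of low level, 1.09 to 7.83 mean CPM in untagged input of experiment 1, so a change is harder to call there. Chromosome 4 members had 5.22 to 110 CPM. Leaving out 1 library at a time gave 33 to 36 calls. The other numbered Zfp genes were lower in 67 of 294 cases (22.8%), with a median of -0.14.

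In experiment 2 the same comparison gave 13 higher and 3 lower members (21.3% and 4.92%, beside backgrounds of 13.5% and 13.7%), and the median was 0.07. The members called higher included 9 of the 12 on chromosome 4, where the median was 0.27. A group of 10 members was called lower in experiment 1 and higher in experiment 2, namely Zfp945 and the chromosome 4 members Zfp979, Zfp980, Zfp981, Zfp982, Zfp984, Zfp985, Zfp987, Zfp988 and Zfp990. The share of all genes with opposite calls, or with the same call in both experiments, was not counted. In fits without 1 library, the rise of experiment 2 was lost in 4 of 6 for Zfp982 and in 3 of 6 for Zfp988, and the fall of experiment 1 was lost in 3 of 6 for Zfp945. With library size alone the rises of Zfp981, Zfp982, Zfp984 and Zfp988 were not called. The calls of Zfp979, Zfp980, Zfp985, Zfp987 and Zfp990 held in all of these fits. Zfp942 and Zfp963 were called lower in both experiments. Those of Zfp942 held in each fit without 1 library, while those of Zfp963 were lost in 4 of 6 in experiment 1, where library size alone also ended the call, and in 3 of 6 in experiment 2. With library size alone the split of experiment 2 was 8 higher and 6 lower.

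**Figure D3:**
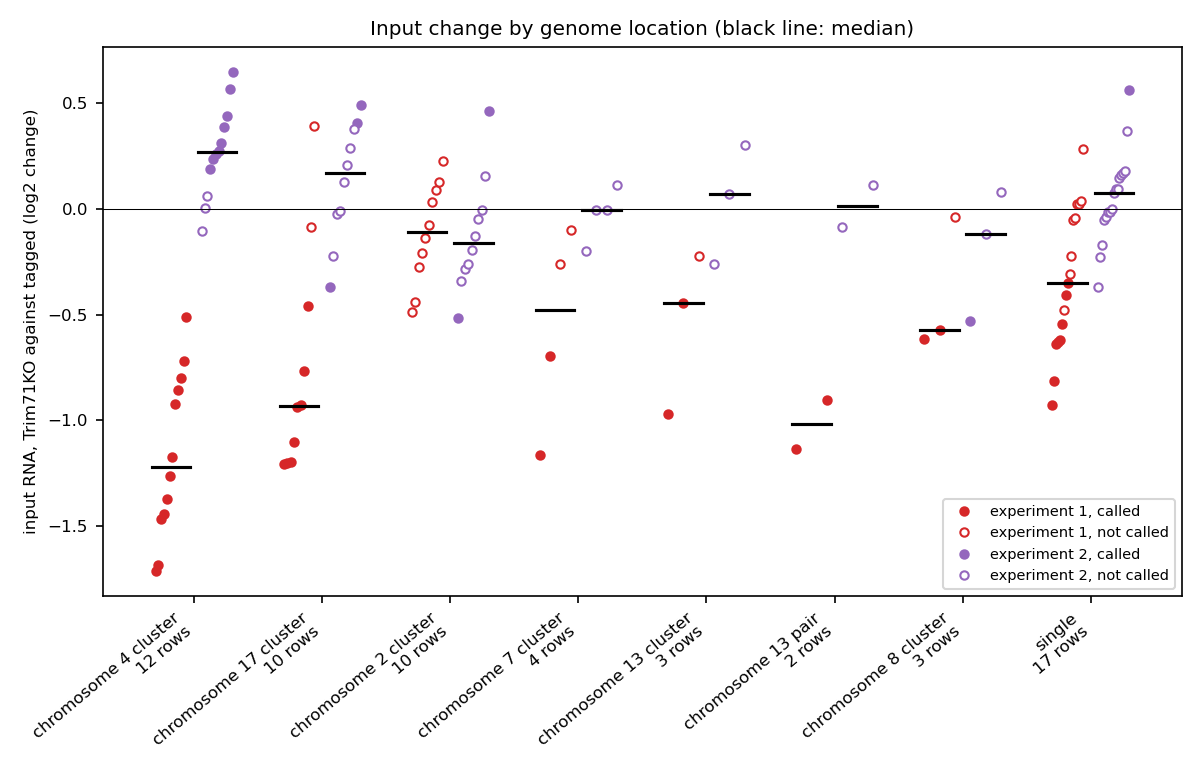
Log2 change of input RNA in Trim71KO against tagged cells for the 61 rows, grouped by genome location, in experiment 1 (red) and experiment 2 (purple). Filled points were called, open points were not, and black lines are medians. The chromosome 4 cluster lies at -1.22 in experiment 1 and 0.27 in experiment 2. The chromosome 2 cluster lies at -0.11 in experiment 1, with 0 calls, and at -0.16 in experiment 2, with 1 higher and 1 lower call.

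Zfp990 RNA, the member of highest level, was 299, 317 and 264 CPM in tagged input of experiment 1. It was 123, 99.2 and 96.1 CPM in Trim71KO input and 119, 95.9 and 116 CPM in untagged input. The tagged libraries thus stood apart from both other genotypes, which overlapped each other. In experiment 2 it was 217, 192 and 198 CPM in tagged, 190, 199 and 208 CPM in untagged, 314, 290 and 346 CPM in Trim71KO and 215, 206 and 199 CPM in Ago2KO input. There the Trim71KO libraries stood above the other 3 genotypes, which overlapped. The change in Trim71KO against tagged cells by edgeR was -1.47 ± 0.12 (adjusted p = 3.24e-09) in experiment 1 and 0.65 ± 0.07 (adjusted p = 2.03e-07) in experiment 2.

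Zfp979 RNA followed the same order, at 132, 155 and 116 CPM in tagged, 45.2, 39.0 and 39.0 CPM in Trim71KO and 41.97, 40.1 and 48.1 CPM in untagged input of experiment 1. In experiment 2 it was 101, 92.4 and 86.2 CPM in tagged, 119, 122 and 125 CPM in Trim71KO and 85.0, 87.8 and 90.8 CPM in untagged input. Its change in Trim71KO was -1.71 ± 0.11 (adjusted p = 9.08e-11) in experiment 1, the largest of the members, and 0.39 ± 0.06 (adjusted p = 2.84e-05) in experiment 2.

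The next largest falls of experiment 1 were -1.69 ± 0.12 for Zfp988, -1.45 ± 0.12 for Zfp987, -1.37 ± 0.12 for Zfp984 and -1.26 ± 0.13 for Zfp981. In experiment 2 these members rose by 0.19 ± 0.06, 0.31 ± 0.06, 0.28 ± 0.07 and 0.26 ± 0.06. Zfp980 RNA rose by 0.57 ± 0.08 in experiment 2 and fell by 0.86 ± 0.11 in experiment 1. Outside chromosome 4, Zfp946 (-1.21 ± 0.16), Zfp995 (-1.20 ± 0.16) and Zfp944 (-1.20 ± 0.17) of chromosome 17 and Zfp936 (-1.16 ± 0.11) of chromosome 7 fell most in experiment 1. Zfp950 (0.57 ± 0.17), Zfp945 (0.49 ± 0.10) and Zfp931 (0.46 ± 0.14) were the largest rises outside chromosome 4 in experiment 2. Zfp963 (-0.53 ± 0.16), Zfp967 (-0.52 ± 0.16) and Zfp942 (-0.37 ± 0.11) were the 3 falls. Zfp931 and Zfp967 lay in the chromosome 2 cluster.

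**Figure D4:**
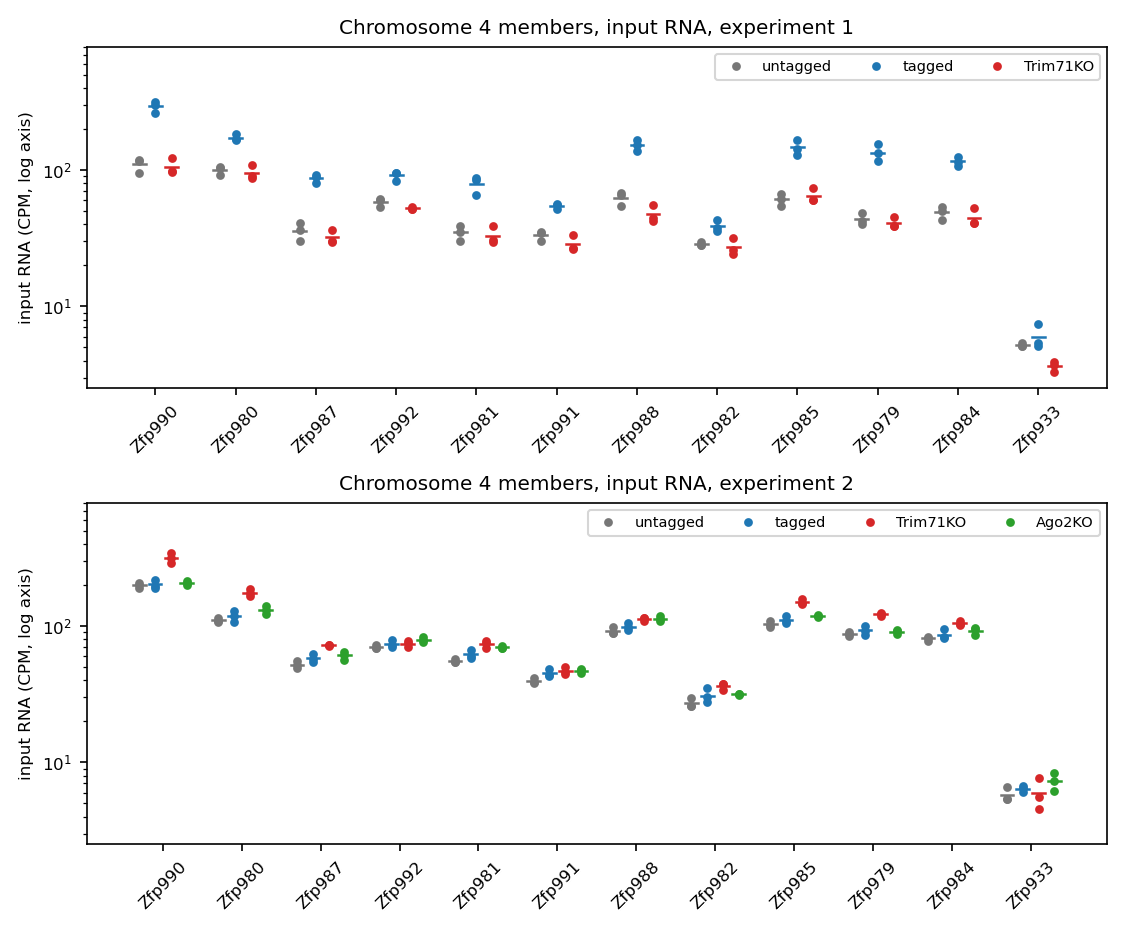
Input RNA (CPM, log axis) of the 12 chromosome 4 members in chromosomal order, in experiment 1 (upper panel) and experiment 2 (lower panel). Points are libraries, and horizontal lines are means of 3. In experiment 1 tagged libraries lie above the other genotypes for 11 members, and Zfp933 is the exception, while in experiment 2 all Trim71KO libraries lie above the other genotypes for Zfp990, Zfp980, Zfp987, Zfp985, Zfp979 and Zfp984. The share of all genes whose libraries separate in this way was not counted.

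Both input comparisons of an experiment, and tag-specific enrichment, share the same 3 tagged input libraries, so the comparison of tagged with untagged input is given beside the one above. In experiment 1, 27 of 61 members were higher in tagged than in untagged input and 0 lower (44.3% and 0%, beside backgrounds of 5.69% and 4.87%), with a median of 0.37. At an unadjusted p under 0.05, 36 of 37 members were higher, and DESeq2 called 30. On chromosome 4 it was 11 of 12, with a median of 1.21. On chromosome 17 it was 8 of 10, with a median of 0.74. On chromosome 2, where levels were low, it was 0 of 10, with a median of -0.18. The largest were Zfp979 (1.63 ± 0.11), Zfp990 (1.41 ± 0.12), Zfp987 (1.29 ± 0.12), Zfp988 (1.29 ± 0.12), Zfp985 (1.27 ± 0.11) and Zfp984 (1.24 ± 0.12). Without tagged input replicate 2, 20 members were higher, without replicate 3 it was 24, and without replicate 1 it was 27, with 1 lower. In experiment 2 no member was called by edgeR or DESeq2 (backgrounds 0.809% higher and 0.581% lower), and 6, all higher, had an unadjusted p under 0.05.

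Summed over the 12 chromosome 4 members, input RNA in experiment 1 was 1401, 1471 and 1244 CPM in tagged, 661, 558 and 649 CPM in untagged and 657, 540 and 535 CPM in Trim71KO cells. In experiment 2 it was 1062, 943 and 953 CPM in tagged, 899, 907 and 969 CPM in untagged, 1292, 1232 and 1353 CPM in Trim71KO and 1084, 1063 and 1005 CPM in Ago2KO cells. Tagged cells were thus the high group of experiment 1, and Trim71KO cells that of experiment 2. Summed over chromosome 2, tagged input of experiment 1 was 42.3, 24.7 and 32.7 CPM and overlapped both untagged (39.6, 37.0 and 38.2 CPM) and Trim71KO input (32.4, 32.2 and 29.4 CPM), which did not overlap each other. In experiment 2 all genotypes overlapped, between 30.9 and 40.8 CPM.

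The difference between the experiments was tested in the fit of all 42 libraries. The change in Trim71KO against tagged input was lower in experiment 1 than in experiment 2 for 34 of 61 members (55.7%, beside backgrounds of 12.2% of 18620 genes in this direction and 10.6% in the other). On chromosome 4 it was 11 of 12, with a median difference of -1.57, and on chromosome 17 it was 9 of 10. On chromosome 2, where levels were low, it was 0 of 10, with a median difference of 0.05. The change in tagged against untagged input was higher in experiment 1 for 19 members (31.1%, beside backgrounds of 1.86% in this direction and 1.04% in the other). With untagged in place of tagged cells as reference, the same fit called 14 members lower and 1 higher in Trim71KO input of experiment 1, of which 2 lower ones lay on chromosome 4 (backgrounds 12.8% lower and 14.1% higher). In experiment 2 it called 14 higher and 3 lower (backgrounds 14.2% and 12.2%), and 10 of the 14 lay on chromosome 4, with a median of 0.44 in the cluster. On chromosome 4 Trim71KO input of experiment 2 was thus higher against either reference. In experiment 1 it was lower for 12 members against tagged and for 2 against untagged cells. Calls against tagged cells come from the fit of each experiment alone, and those against untagged cells from the joint fit. Without 1 of the 3 tagged inputs of experiment 1, the joint fit gave 31 to 36 members in place of 34 and 16 to 19 in place of 19. Its calls against the untagged reference were then 13 to 15 lower in experiment 1 and 12 to 14 higher in experiment 2.

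Markers of other cell types, like those of embryonic stem cells, differed between the genotypes. The summed input level of primitive endoderm markers (6 of 6 with a row in experiment 1, 5 of 6 in experiment 2) was 53.5 to 67.6 CPM in tagged, 58.6 to 61.1 CPM in untagged and 9.69 to 10.8 CPM in Trim71KO input of experiment 1. The values of experiment 2 were 18.5 to 21.3, 20.5 to 22.3 and 5.90 to 7.52 CPM, with 8.24 to 9.98 CPM in Ago2KO input. The 2 of 6 fibroblast markers with a row summed to 58.0 to 61.8 CPM in Trim71KO and 20.4 to 24.5 CPM in the other inputs of experiment 1, and to 49.5 to 51.9 against 28.3 to 35.8 CPM in experiment 2. Markers of epiblast or early lineages (4 and 5 of 6 with a row) summed to 54.4 to 57.9 CPM in Trim71KO against 39.8 to 46.6 CPM in the other inputs of experiment 1, and to 115 to 136 against 67.1 to 80.2 CPM in experiment 2. The part of these markers in the result was not tested. In bulk RNA, fewer cells of a type and less RNA per cell cannot be told apart.

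In Ago2KO input, 3 members were higher than in tagged input and 0 lower by edgeR (4.92% and 0%, beside backgrounds of 4.38% and 2.57%). At an unadjusted p under 0.05, 12 of 12 members were higher, and DESeq2 called 2. They were Zfp936 (0.45 ± 0.11, adjusted p = 0.0118), Zfp949 (0.30 ± 0.09, adjusted p = 0.0474) and Zfp988 (0.20 ± 0.06, adjusted p = 0.0466). Zfp936 RNA was 53.7, 50.2 and 45.7 CPM in Ago2KO and 41.3, 34.4 and 33.9 CPM in tagged input, without overlap. No call was left without Ago2KO input replicate 1, tagged input replicate 2 or tagged input replicate 3, and 1 was left without Ago2KO input replicate 2 or replicate 3.

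The promoter run shown above was also held by genes outside the number range, and their values are given beside those of the members. Zfp534, a KRAB zinc finger gene of chromosome 4, was 1.40 ± 0.14 higher in tagged than in untagged input of experiment 1 (log2, edgeR adjusted p = 7.22e-07). In Trim71KO against tagged input it fell by 1.48 ± 0.14 in experiment 1 (adjusted p = 4.71e-08) and rose by 0.37 ± 0.06 in experiment 2 (adjusted p = 1.81e-05). All 4 such genes outside the number range were called lower in Trim71KO input of experiment 1 (median -1.27, background 17.4% lower). In experiment 2, 3 of 4 were called higher (median 0.20, background 13.5% higher). Zfp600 and Rex2 had nearly the same mean level, 147 and 148 CPM in tagged and 70.2 and 72.8 CPM in Trim71KO input of experiment 1. Whether they share reads was not tested, so the 4 genes may not be independent. Carriers and other members overlapped in the size of their fall in experiment 1. Zfp982, which holds the run in 1 of 3 windows, fell by 0.51 ± 0.10, and Zfp933, which lacks it, by 0.72 ± 0.19. Zfp946 and Zfp995 of chromosome 17, whose windows lack it, changed by -1.21 ± 0.16 and -1.20 ± 0.16. These genes were picked after values had been seen, and the run was not tested as a site. Zfp990, Zfp991 and Zfp992 had no window in the RefSeq table.

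Genes that work with KRAB zinc finger proteins were counted in the same comparisons. Of 22 cofactor genes, 3 were higher and 7 lower in Trim71KO against tagged input of experiment 1 by edgeR (13.6% and 31.8%, beside backgrounds of 16.5% and 17.4%). In experiment 2, 7 were higher and 2 lower (31.8% and 9.09%, beside backgrounds of 13.5% and 13.7%). Trim28, the corepressor that the KRAB domain recruits, rose by 0.38 ± 0.06 in experiment 2 (adjusted p = 3.31e-05) and was not called in experiment 1. Setdb1, the methyltransferase, rose in both, by 0.33 ± 0.09 and 0.27 ± 0.06. Smarcad1, a chromatin remodeler, fell by 0.49 ± 0.10 in experiment 1 (adjusted p = 0.000372). In tag-specific enrichment 5 cofactors were higher and 12 lower in experiment 1 (22.7% and 54.5%, beside backgrounds of 28.1% and 28.8%). In experiment 2, 5 were higher and 2 lower (22.7% and 9.09%), near the backgrounds of 18.9% and 8.77%. Suv39h1, a histone methyltransferase, had the largest value of the 22 in both, 3.49 ± 0.14 (adjusted p = 7.66e-16) and 2.09 ± 0.16 (adjusted p = 3.28e-11). Of 9 KRAB zinc finger genes with other numbers or names, 3 were higher and 1 lower in tag-specific enrichment of either experiment (33.3% and 11.1%, beside the backgrounds just given), which for so few genes is not set apart from the background. In Trim71KO against tagged input 1 of these 9, Zfp534, was lower in experiment 1 (11.1%, background 17.4%), and 3 were higher and 2 lower in experiment 2 (33.3% and 22.2%, beside backgrounds of 13.5% and 13.7%).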

How the data were processed

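For both experiments the authors deposited, per the file headers, whole-number counts by gene and library, and beside them RPKM and gene length. Per the submitters' processing notes, GRCm38/mm10, bcl2fastq 2.20 and STAR 2.7.3a were used; the counting tool and its treatment of strand and of reads with several hits are not given in the sources used here. The kit was stranded total RNA, per the labels' protocols. The deposited RPKM values were only checked against the counts.

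Counts were tested with edgeR 4.0.16 (R 4.3.3; TMM, filterByExpr, quasi-likelihood F test, a mean per group), with 1 fit per experiment over all its groups. Enrichment was tested as an interaction of IP and genotype. P-values were adjusted by Benjamini-Hochberg over all genes, and calls use adjusted p under 0.05. SE is the log2 change over the square root of F. CPM uses TMM-scaled library sizes, and their counting error ignores duplicate molecules. On simulated counts the fit recovered 98 of 100 genes changed by 1 (log2) for Trim71-dependent enrichment of experiment 1, among 18421 genes, and 99 of 100 for experiment 2, among 19437. The changed genes were drawn only from genes of higher counts. This recovery thus does not cover members of low level or changes smaller than 1. Replicate pairs (42) differed beyond sampling noise, with a chi-square per gene of 2.87 to 64.1.

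Alternatives were RLE factors, library size alone, DESeq2 1.42.0, no filter, only the groups compared, a replicate block and leaving out each library; the joint fit of 42 libraries, that fit without each tagged input of experiment 1, and the untagged reference were added after seeing the data. Replicate numbers deviated together in experiment 2 (same fraction, median correlation 0.149 over 36 pairs of libraries, with 21 over 0.1), every pair of tagged and Trim71KO libraries being over 0.1, and less so in experiment 1 (median 0.039 over 18 pairs).

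Members named are called members with the largest changes in a comparison, up to 6 each way, and those called alike in both experiments. The members and lists were chosen with earlier results of these data known. Loci and promoters came from RefSeq (GRCm38.p6), matched by Entrez ID for 61 of 61 rows; Zfp957, Zfp978, Zfp993 and Zfp996 were not analysed here.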

Additional observations from a re-analysis of the deposited data

Results flagged for a closer look

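The 11 members whose enrichment differed between Trim71KO and Ago2KO cells of experiment 2 were picked out because the interaction itself was called by edgeR. The differences (log2, Trim71KO minus Ago2KO) were -0.82 for Zfp954, -0.65 for Zfp946, -0.54 for Zfp981, -0.48 for Zfp990, -0.44 for Zfp980, -0.38 for Zfp979, -0.38 for Zfp991, -0.37 for Zfp984, -0.37 for Zfp987, -0.35 for Zfp985 and -0.31 for Zfp988.

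The 11 chromosome 4 members whose input change in Trim71KO against tagged cells differed between the experiments were picked out by the joint fit of 42 libraries. The differences (log2, experiment 1 minus experiment 2) were -2.11 for Zfp990, -2.10 for Zfp979, -1.87 for Zfp988, -1.76 for Zfp987, -1.65 for Zfp984, -1.61 for Zfp985, -1.52 for Zfp981, -1.42 for Zfp980, -0.98 for Zfp991, -0.80 for Zfp992 and -0.74 for Zfp982.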

How the results depend on the processing

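No member's direction reversed in any of the 2010 refits of called members. For tag-specific enrichment of experiment 2, library size alone gave 17 calls (7 higher, 10 lower) in place of 11, and leaving out 1 library gave 7 to 14. Ago2-dependent enrichment had 3 calls in place of 5 with RLE factors, with no filter or with only the groups compared, and 2 to 7 without 1 library. Trim71-dependent enrichment had 0 to 4 calls in place of 3 without 1 library in experiment 1, and library size alone gave 1 call in place of 0 in experiment 2. Input of Ago2KO against tagged cells had 1 call in place of 3 with RLE factors, library size alone or no filter, and 0 to 2 without 1 library. Input of tagged against untagged cells in experiment 2 had 1 call in place of 0 with only the groups compared. The cause was not tested. Library size alone moved the median of all genes from -0.03 to -0.24 in tag-specific enrichment of experiment 2, from 0.00 to 0.11 in Ago2-dependent enrichment and from -0.04 to 0.07 in Trim71-dependent enrichment of experiment 1; the members' medians moved with it, from 0.04 to -0.17, 0.17 to 0.28 and -0.10 to 0.01. Counts of the other comparisons stayed within 1.5 times under each alternative run: 33 to 36 without 1 library for Trim71KO against tagged input of experiment 1, 12 to 17 for experiment 2, 20 to 28 for tagged against untagged input of experiment 1, 16 to 23 for tag-specific enrichment of experiment 1 and 9 to 13 for Trim71KO against Ago2KO. A replicate block within fraction gave 36 and 16 calls for Trim71KO against tagged input, 7 for Ago2-dependent enrichment (6 higher, 1 lower) and 14 for Trim71KO against Ago2KO (1 higher, 13 lower), and moved no count by over 1.5 times. The unstated handling of reads with several hits, and 3 libraries a group, limit what is shown for single members. In untagged input of experiment 1, 20 of 61 rows were under 5 CPM.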
